A study of Mus musculus with 10 samples.

Results

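The genes described here are 730 protein-coding genes of mouse chromosome 11, taken from the 35427 genes measured in 10 male embryonic stem cell (ESC) lines. A gene was included if its level averaged at least 5 CPM (read counts scaled to a common library total, with TMM factors) over the 10 lines, which 772 of the 1623 protein-coding genes of the chromosome did, and 42 of these were left out by symbol because they belong to families or pathways described on their own, such as ribosomal proteins, respiratory chain subunits and Wnt targets. All 730 also passed the read minimum of the tests. The lowest level inside the floor was that of Arhgap44, at 5.04 CPM, and the highest outside it was that of Cyfip2, at 4.92 CPM. The question asked of them was which genes do not share the chromosome's higher level in the heterozygous lines.

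The lines were derived on a C57BL/6 background from blastocysts of matings between heterozygous parents, and differ in the gene for thymine DNA glycosylase (Tdg), an enzyme of base excision repair that takes part in active DNA demethylation. There were 3 wt (Tdg+/+) lines, 3 Tdg+/- lines and 4 Tdg-/- lines, each sequenced as 1 library of ribosome-depleted, stranded total RNA. All were first grown on inactivated feeder cells and then without them on gelatin in serum-free medium with LIF and 2 kinase inhibitors (2i), which hold ESCs in the naive state. Each line has its own culture history, and no label ties a line to a mating. With 3 or 4 lines a genotype, the p values measure the spread between lines.

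ESCs are pluripotent cells that divide fast and can gain or lose whole chromosomes in culture. When the copy number of a chromosome changes, the RNA of most of its genes tends to change with it, while the level of a single gene also depends on its promoter, on feedback and on the decay of its mRNA. DNA copy number was not measured in the files used here, and its part in the values below was not tested. In bulk RNA, more RNA per cell and more cells with that RNA cannot be told apart.

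Each line held 31095354 to 39916106 reads in genes. The summed level of 10 ESC markers, among them Pou5f1 and Nanog, was 4570 to 5700 CPM over the 10 lines. The 10 feeder fibroblast markers summed to 6.99 to 55 CPM, 8 primitive endoderm markers to 34.5 to 75.2 CPM, mostly laminin Lama1, and 8 markers of two-cell-like cells to at most 0.089 CPM. Tdg itself stood at 85.4 to 92.7 CPM in wt, 40 to 46.6 CPM in Tdg+/- and 7.71 to 10.6 CPM in Tdg-/- lines, in the order of the labels. Tdg-/- line 1 stood apart from the other lines of its genotype, with 87 to 142.4 chi-square units per gene between its counts and theirs, and comparisons that use it are also given without it. In wt line 1 the median gene of chromosome 16 was 0.38 above the middle of the 10 lines on the log2 scale, the highest value of any other chromosome in any line.

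The promoters of 6 genes are shown first, 4 that were not higher in the Tdg+/- lines (Stc2, Slc1a4, Pycr1 and Srsf1) and the pair with the largest departures above the chromosome by p (Acadvl and Cnp). The genes were chosen by their values, and the motifs after these were seen. Slc16a6, first below the chromosome by p, had no promoter entry. Pitpnc1 and Eif1, which ranked before Slc1a4 and Pycr1 by p, are not shown. The 6 windows were thus picked by hand and are no basis for comparing genes below with genes above. Each run holds 260 bases, 250 before and 10 after the start of the gene, from the RefSeq annotation of build GRCm38.p6, read 5′ to 3′ on the gene's own strand. Capitals mark the letters CCAAT, the core of a common promoter element, and TGATGNAA, the core of the element through which ATF4 acts on amino acid genes, each on either strand (ATTGG and the reverse complement of TGATGNAA). The windows are Stc2 at chr11:31370052-31370311, Slc1a4 at chr11:20332704-20332963, Pycr1 at chr11:120643739-120643998 and Acadvl at chr11:70015419-70015678, all on the minus strand, and Srsf1 at chr11:88047123-88047382 and Cnp at chr11:100574689-100574948, both on the plus strand.
Stc2: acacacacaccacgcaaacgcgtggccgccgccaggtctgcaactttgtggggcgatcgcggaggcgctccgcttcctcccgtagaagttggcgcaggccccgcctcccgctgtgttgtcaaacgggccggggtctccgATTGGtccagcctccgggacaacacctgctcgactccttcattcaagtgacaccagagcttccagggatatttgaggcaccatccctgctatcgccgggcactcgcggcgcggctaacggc
Slc1a4: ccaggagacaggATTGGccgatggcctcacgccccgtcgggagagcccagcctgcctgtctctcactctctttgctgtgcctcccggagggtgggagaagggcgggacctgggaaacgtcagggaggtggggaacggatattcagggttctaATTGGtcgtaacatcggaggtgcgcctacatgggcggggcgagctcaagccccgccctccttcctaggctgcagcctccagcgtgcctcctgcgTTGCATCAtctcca
Pycr1: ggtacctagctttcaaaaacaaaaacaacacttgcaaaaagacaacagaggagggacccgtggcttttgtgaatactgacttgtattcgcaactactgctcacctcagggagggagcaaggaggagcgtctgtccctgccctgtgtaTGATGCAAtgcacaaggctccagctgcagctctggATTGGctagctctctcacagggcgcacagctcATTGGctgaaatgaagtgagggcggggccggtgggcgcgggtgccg
Srsf1: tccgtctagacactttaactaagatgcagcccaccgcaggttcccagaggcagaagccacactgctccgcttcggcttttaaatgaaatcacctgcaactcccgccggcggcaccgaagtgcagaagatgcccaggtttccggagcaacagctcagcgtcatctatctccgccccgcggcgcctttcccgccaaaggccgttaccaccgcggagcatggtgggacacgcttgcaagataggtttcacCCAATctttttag
Acadvl: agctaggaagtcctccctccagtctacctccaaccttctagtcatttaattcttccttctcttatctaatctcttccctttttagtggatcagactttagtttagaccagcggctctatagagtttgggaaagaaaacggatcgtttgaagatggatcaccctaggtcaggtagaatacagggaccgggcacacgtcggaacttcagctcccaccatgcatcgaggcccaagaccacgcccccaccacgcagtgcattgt
Cnp: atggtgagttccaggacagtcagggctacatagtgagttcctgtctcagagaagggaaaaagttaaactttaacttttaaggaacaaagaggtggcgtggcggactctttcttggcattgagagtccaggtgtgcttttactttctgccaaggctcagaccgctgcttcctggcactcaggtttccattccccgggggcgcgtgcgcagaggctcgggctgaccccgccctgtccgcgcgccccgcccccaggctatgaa

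Of the 730 genes, 610 had a promoter entry. Within such windows CCAAT was present in 231 of the 610 (37.9%) and in 35.2% of the 27025 promoters of all genes in the table. Among the 24 genes whose level in the Tdg+/- lines was at or below that in wt, 20 had an entry and 14 of these (70%) held CCAAT. The set of 24 depended on the fit. With the GC correction described further on, 14 of the 24 stayed at or below 0, and 4 did so in all 15 alternative fits. The longer motif TGATGNAA was in 7 of the 610 windows (1.15%) and in 3.67% of all promoters, and 2 of the 7, Slc1a4 and Pycr1, were among the 20. Of the genes below the shared shift described further on, 43 had an entry, with CCAAT in 22 (51.2%) and TGATGNAA in 2 (4.65%), and of those above it 46 had one, with CCAAT in 16 (34.8%) and TGATGNAA in 2 (4.35%). In Slc1a4 the match began at base 247 of the window and in Pycr1 at base 148. These are matches of letters only. CpG dinucleotides numbered 26 in the Stc2 window, 16 in Slc1a4, 9 in Pycr1 and Acadvl, 19 in Srsf1 and 13 in Cnp, where the median over the 610 was 18.

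As a group, the chromosome 11 genes were higher in all 3 Tdg+/- lines than in every wt and every Tdg-/- line. Each gene's log2 CPM was set against its middle value among the 10 lines and the median was taken over the 730 genes. Tdg+/- lines 1, 2 and 3 had medians of 0.19, 0.42 and 0.30. Those of the wt lines were -0.11, -0.07 and -0.13, and those of the Tdg-/- lines -0.03, -0.11, -0.17 and 0.05. The means differed by 0.41 between Tdg+/- and wt (0.30 ± 0.12 against -0.10 ± 0.03, SD, n = 3 each; p = 0.1 in a two-sided exact permutation test, with 3 against 3 lines unable to give less). The 730 genes took 7.35% to 7.40% of the reads in wt lines, 9.01% to 10.6% in Tdg+/- lines and 7.18% to 8.51% in Tdg-/- lines. Over the other chromosomes the median log2 fold change of Tdg+/- against wt ran from -0.20 (chromosome 16) to 0.03 (chromosome 19).

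**Figure D1:**
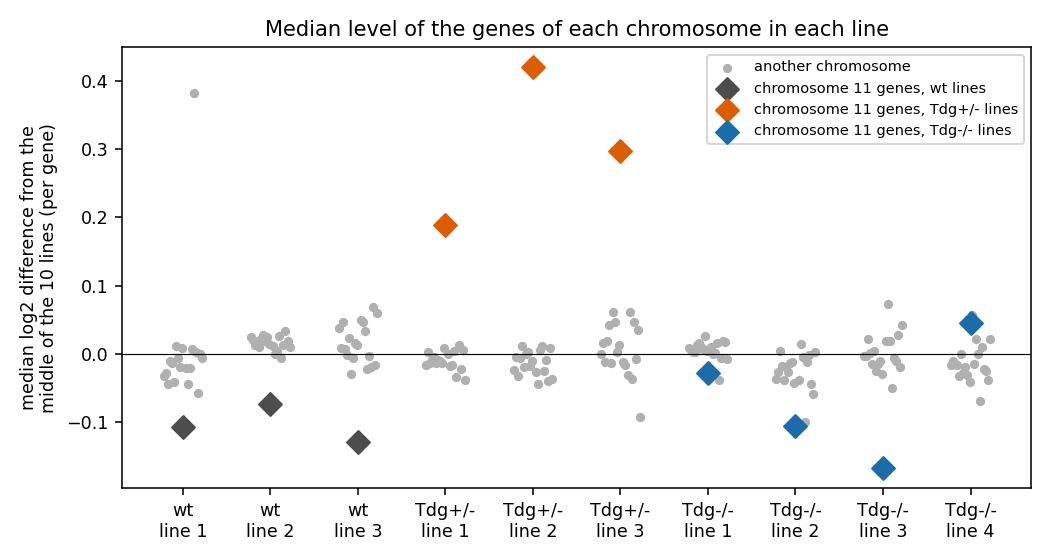
Median log2 CPM difference from the middle of the 10 lines (y axis) for the genes of each chromosome in each line (x axis). Coloured diamonds are the 730 chromosome 11 genes. Grey points are the autosomes and X, with chromosome 11 included as its 772 genes before any were left out by symbol. The diamonds of the 3 Tdg+/- lines sit at 0.19 to 0.42, above every point of another chromosome but that of chromosome 16 in wt line 1.

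Gene by gene, the log2 fold change of Tdg+/- against wt had a median of 0.43 (1.35-fold) and an interquartile range of 0.31, where 8614 genes of other chromosomes had a median of -0.03 and an interquartile range of 0.30. In edgeR's quasi-likelihood test 486 of the 730 genes were higher in Tdg+/- at an unadjusted p under 0.05, beside 9.55% of all genes tested, and 3 were lower, beside 7.41%. The lines did not overlap for 500 genes that were higher (background 12.8%) and for 2 that were lower (background 8.98%). After Benjamini-Hochberg adjustment over 13880 genes, edgeR called 0 of the 730 in either direction (background 0.0144% each), DESeq2 called 273 and the fit with 3 surrogate variables 567. The lowest adjusted p was 0.0609, for Acadvl and Cisd3. Without Tdg+/- line 2, the line with the highest median, 318 genes were higher at an unadjusted p under 0.05. Without Tdg+/- line 1, the line with the lowest, 106 were called after adjustment.

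**Figure D2:**
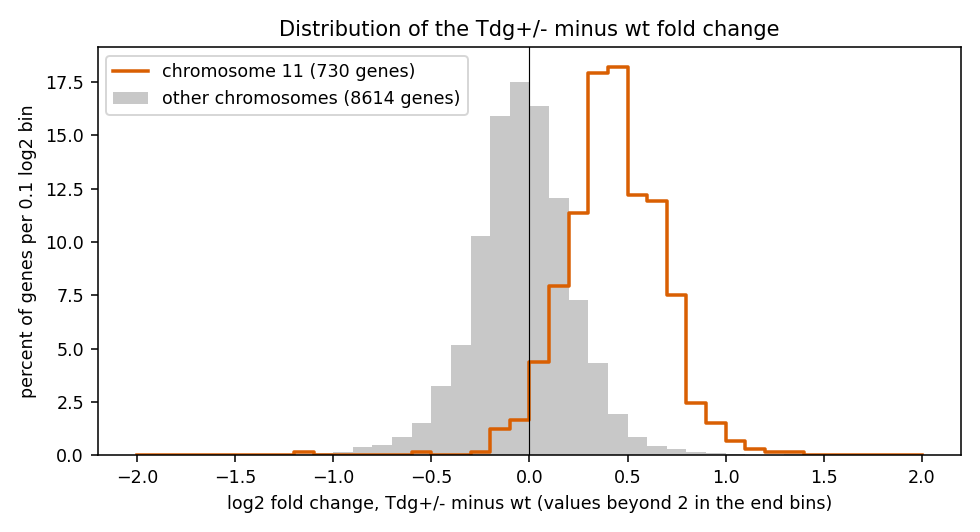
Percent of genes (y axis) in each 0.1 bin of the log2 fold change of Tdg+/- against wt (x axis), for 730 chromosome 11 genes (orange outline) and 8614 genes of other chromosomes (grey bars). The outline and the bars have a similar spread, around medians of 0.43 and -0.03.

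Only 24 of the 730 genes (3.29%) had a log2 fold change at or below 0, where 52.2% of all genes tested did. Of these 24, 3 were lower in Tdg+/- at an unadjusted p under 0.05, namely Stc2, Pitpnc1 and Slc16a6. The Tdg+/- lines also chose the 24 genes, so the following values are a description. The difference of line 2 from line 1 had a median of -0.05 over the 24, of 0.23 over all 730 and of 0.00 over the other chromosomes. Over the 24 genes the level was higher in line 1 than in line 2 for 17. Read support was lower in the 24, at a median of 17 CPM against 37.8 CPM for the 730. Of the 244 genes with the fewest reads, 13 were at or below 0, and of the 243 with the most reads, 5. Without Tdg+/- line 1 the count at or below 0 was 43.

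To ask which genes departed from the chromosome, the median shift of each chromosome in each line was set as an offset and the edgeR test was repeated. Relative to this shared shift 48 genes were lower (6.58%) and 52 higher (7.12%) at an unadjusted p under 0.05, where 6.76% of all genes tested were lower and 6.76% higher relative to their own chromosome. The shares were close to this background, and 0 of the 730 passed the adjusted threshold in either direction (background 0.0144% lower and 0.0072% higher), with 18 departing in DESeq2. The unadjusted counts turned on single lines, with 80 below without wt line 1 and 73 without Tdg+/- line 1, 20 to 31 without any one of the other lines, 89 above without Tdg+/- line 1, and 21 to 26 without wt line 2 or 3 or Tdg+/- line 2 or 3. The genes below and above are therefore a ranking by departure, described by their values. The 48 below had a median log2 fold change of 0.09 against wt and the 52 above of 0.84.

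Slc16a6, a member of the monocarboxylate transporter family, departed below the chromosome with the smallest p. It stood at 37.0, 36.8 and 39.4 CPM in the wt lines, 30.8, 30.6 and 33.8 CPM in the Tdg+/- lines and 31.2, 24.0, 30.6 and 26.4 CPM in the Tdg-/- lines. Every Tdg+/- line and every Tdg-/- line was below every wt line. The log2 fold change of Tdg+/- against wt was -0.27 ± 0.11 (SE), and relative to the shared shift it was -0.70 (edgeR, unadjusted p = 0.000316, adjusted p = 0.122). It was at or below 0 in all 15 alternative fits of the comparison.

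Stc2 encodes a secreted glycoprotein that is made in larger amounts under endoplasmic reticulum stress, and had the lowest fold change of the 730. Its levels were 28.0, 14.6 and 21.4 CPM in wt, 13.1, 7.14 and 9.74 CPM in Tdg+/- and 21.8, 8.33, 15.2 and 9.88 CPM in Tdg-/- lines. The 3 Tdg+/- lines were below the 3 wt lines, whose own range was wide, while the Tdg-/- lines overlapped both. The log2 fold change was -1.11 ± 0.28 (SE) against wt and -1.52 relative to the shared shift (edgeR, unadjusted p = 0.00115, adjusted p = 0.177). Pitpnc1, a phosphatidylinositol transfer protein, was measured at 11.04, 16.4 and 14.6 CPM in wt, 11.1, 8.86 and 9.43 CPM in Tdg+/- and 13.2, 10.99, 14.3 and 10.1 CPM in Tdg-/- lines. Tdg+/- line 1 lay just above wt line 1, so the groups overlapped. Its log2 fold change was -0.53 ± 0.18 (SE). Both genes, like Slc16a6 and Mmd, were at or below 0 in each of the 15 alternative fits, which held for 4 of the 24.

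The splicing factor Srsf1, read more deeply than the genes before it, was also not higher. It was at 684.1, 847.1 and 921.8 CPM in wt, 716.6, 828.7 and 837.4 CPM in Tdg+/- and 841.7, 734.0, 816.2 and 792.7 CPM in Tdg-/- lines. The 3 groups overlapped and their means were 817.7 ± 121.6, 794.2 ± 67.4 and 796.2 ± 46.0 CPM (SD). Its log2 fold change was -0.06 ± 0.13 (SE) against wt and -0.50 relative to the shared shift (edgeR, unadjusted p = 0.00373, adjusted p = 0.224). The transcript of Srsf1 has a GC content of 40.6%, and with a correction for GC content its log2 fold change was above 0. Eif1, which guides the choice of the start codon, stood at 204.0, 167.8 and 196.2 CPM in wt, 197.1, 188.8 and 159.2 CPM in Tdg+/- and 154.1, 208.0, 208.8 and 226.3 CPM in Tdg-/- lines. Its groups overlapped, with a log2 fold change of -0.07 ± 0.13 (SE).

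Slc1a4 and Pycr1 act in amino acid supply. Their windows hold TGATGNAA, a motif found in 4.65% of the genes below the shared shift and 4.35% of those above. Its part in their levels was not tested. Slc1a4, a transporter of neutral amino acids, was at 37.6, 27.9 and 33.0 CPM in wt, 31.4, 34.3 and 29.8 CPM in Tdg+/- and 46.7, 17.3, 23.1 and 20.2 CPM in Tdg-/- lines. The Tdg+/- lines lay within the wt range and Tdg-/- line 1 was above the other lines of its genotype. Pycr1, which makes proline, was at 23.3, 17.9 and 18.04 CPM in wt, 20.2, 18.2 and 16.5 CPM in Tdg+/- and 21.6, 11.5, 13.2 and 14.4 CPM in Tdg-/- lines. Relative to the shared shift Slc1a4 was at -0.50 and Pycr1 at -0.56 (log2; edgeR, adjusted p = 0.256 and 0.262). The other genes named by the rule were the Mediator subunit Med7 (-0.49), Cpsf4l (-0.60) and the zinc finger gene Zfp62 (-0.59), each with wt and Tdg+/- lines that overlapped. With the GC correction Med7 was at -0.25 and Zfp62 at -0.33 relative to the shared shift, and the log2 fold change of both against wt was above 0.

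Above the chromosome, Acadvl, which starts the mitochondrial oxidation of very long-chain fatty acids, had the smallest p. It stood at 14.7, 15.6 and 13.7 CPM in wt, 27.2, 37.7 and 32.2 CPM in Tdg+/- and 19.4, 18.2, 17.7 and 25.6 CPM in Tdg-/- lines. All Tdg+/- lines were above all lines of the other genotypes, and its log2 fold change of 1.12 ± 0.15 (SE) was 0.68 above the shared shift (edgeR, unadjusted p = 0.000325, adjusted p = 0.122). Cnp, a phosphodiesterase known from myelin, was at 8.74, 9.62 and 8.83 CPM in wt, 16.5, 25.7 and 19.8 CPM in Tdg+/- and 11.6, 11.5, 11.2 and 14.9 CPM in Tdg-/- lines. Here too the Tdg+/- lines did not overlap the rest, and the log2 fold change was 1.17 ± 0.18 (SE).

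Sec14l2, a lipid-binding protein, had the highest fold change of the 730. It reached the floor of 5 CPM that set the 730 genes with a mean of 5.47 CPM, which was 4.42 CPM without the Tdg+/- lines, so its place is a description. It was measured at 2.88, 3.42 and 3.06 CPM in wt, 8.22, 9.35 and 6.18 CPM in Tdg+/- and 4.02, 5.32, 5.22 and 7.05 CPM in Tdg-/- lines. Each Tdg+/- and each Tdg-/- line was above each wt line, and the log2 fold change of Tdg+/- against wt was 1.31 ± 0.21 (SE). Without the Tdg+/- lines, 15 of the 730 genes, Sec14l2 among them, averaged less than 5 CPM. Of these 15, 11 had a log2 fold change above the median of the 730, and the place of all 15 in the set rests on the Tdg+/- lines. Jpt1 was at 100.3, 102.2 and 91.6 CPM in wt, 151.3, 216.2 and 191.0 CPM in Tdg+/- and 108.7, 155.2, 129.8 and 187.2 CPM in Tdg-/- lines. Its Tdg+/- lines lay above all wt lines and overlapped the Tdg-/- lines, which were themselves above wt.

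Cisd3, an iron-sulfur protein of mitochondria, varied least among the Tdg+/- lines of these genes. It was at 16.8, 19.6 and 17.2 CPM in wt, 35, 35.5 and 32.3 CPM in Tdg+/- and 18.6, 25, 22.7 and 25.8 CPM in Tdg-/- lines. Osbpl7, of the oxysterol-binding family, was at 8.98, 11 and 8.74 CPM in wt, 16.1, 21.2 and 20.9 CPM in Tdg+/- and 11.7, 8.03, 8.22 and 9.14 CPM in Tdg-/- lines. In both genes the Tdg+/- lines did not overlap the others, with a log2 fold change against wt of 0.92 ± 0.12 for Cisd3 and 1.001 ± 0.162 for Osbpl7 (SE). The lysosomal amino acid transporter Slc36a1 (0.65 above the shared shift), the zinc transporter family member Slc39a11 (0.43), the metalloprotease Adam19 (0.53) and the polarity gene Llgl1 (0.53) completed the 10 named above the chromosome, and in each of them the Tdg+/- lines were above the wt lines.

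**Figure D3:**
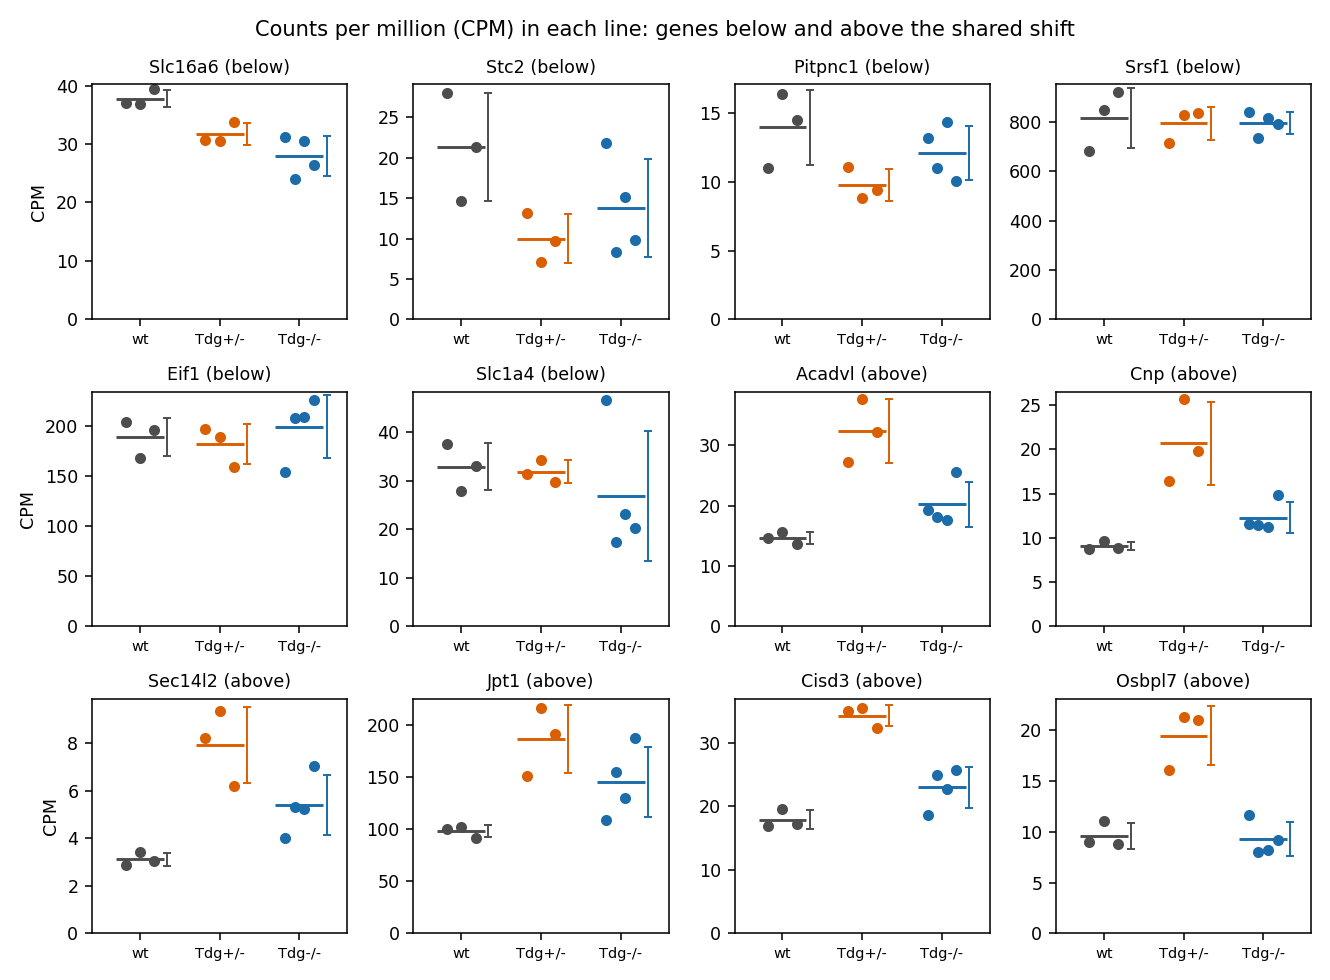
CPM (y axis, from 0) of 12 genes in each line by genotype; points are lines, horizontal bars group means and error bars SD. In the first 6 genes, below the shared shift, the Tdg+/- lines overlap the wt lines or lie below them, and in the last 6 they are above every wt line.

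The departures moved with the order of the Tdg+/- lines. Over the 52 genes above the chromosome the level in line 2 exceeded that in line 1 by a median log2 of 0.45, in each of the 52, and the order was line 2, then 3, then 1 in 37 of them (71.2%). Over the 48 genes below, the median difference of line 2 from line 1 was 0.05 and 11 genes (22.9%) had this order, while over all 730 it was 291 (39.9%) and over other chromosomes 14.3%. These lines also chose the genes, so the values are a description.

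Departures also moved with the GC content of transcripts. The median GC content was 47% in the 48 genes below, 54.5% in the 52 above and 52.2% in all 730. Across the 730 genes Spearman's rho between GC content and the log2 fold change of Tdg+/- against wt was 0.38, and across 8614 genes of other chromosomes it was 0.48 (genes share libraries and are not independent replicates). The 244 genes with the lowest GC content had a median log2 fold change of 0.32 and held 15 of the 24 genes at or below 0, and the 243 with the highest had 0.51 and held 5. With a GC correction fitted outside chromosome 11, the median was 0.42, 56 genes were below and 52 above the shared shift, and 35 of the 48 and 40 of the 52 were among these. Again 24 genes were at or below 0, of which 14 were the same, among them Slc16a6, Stc2, Pitpnc1, Slc1a4, Pycr1 and Eif1, while Srsf1, Med7, Zfp62, Crk, Ska2 and Ebf1 were among the 10 that were then above 0.

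Along the chromosome, the median fold change was above 0 in each stretch examined. In 10 equal groups of 73 genes in chromosome order, the median log2 fold change of Tdg+/- against wt was 0.32 in the second, from Cct4 to Zfp354a, and 0.57 in the eighth, from Psmd3 to Arf2, and lay between these in the others. The second group held 7 of the 24 genes at or below 0, 10 of the 48 below the shared shift and 4 of the 52 above. Running medians over 41 genes stayed above 0 in Tdg+/- line 1 (0.10 to 0.34) and line 2 (0.22 to 0.59). In Tdg+/- line 3 they ran from -0.00 to 0.60, and at 23 of the 690 positions, from gene rank 69 to 93, they were not above wt line 3. The medians there were -0.00 for Tdg+/- line 3, 0.02 for wt line 3, 0.11 for Tdg+/- line 1 and 0.20 for Tdg-/- line 4. These positions lie at the end of the first and the start of the second group. Over the second group as a whole the medians were 0.16, 0.27 and 0.12 in the Tdg+/- lines, -0.20, -0.11 and -0.04 in the wt lines and -0.02, -0.12, -0.10 and 0.06 in the Tdg-/- lines. Tdg-/- line 4 was above Tdg+/- line 1 at 45 of the 690 positions. Genes that departed were mostly not neighbours, with 4 adjacent pairs among the 48 below and 4 among the 52 above.

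**Figure D4:**
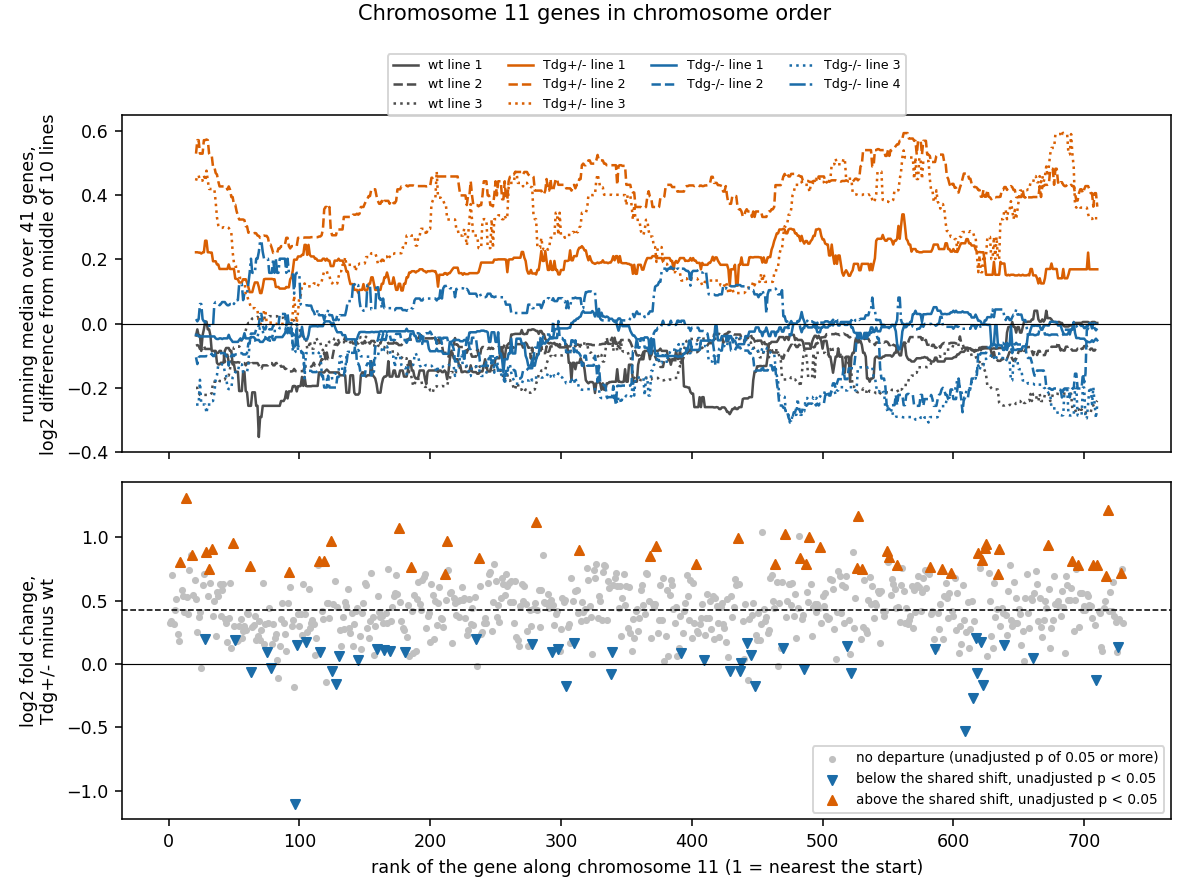
Upper panel, running median over 41 genes of the log2 CPM difference from the middle of the 10 lines (y axis) against gene rank along chromosome 11 (x axis) for each line; lower panel, log2 fold change of Tdg+/- against wt for each of 730 genes, with 48 genes below (blue) and 52 above (orange) the shared shift and the median of 0.43 dashed. Tdg+/- lines 1 and 2 stay above 0 throughout, while line 3 falls to 0 near the border of the first and second groups of 73 genes.

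By function, the genes were sorted into 16 lists drawn from general knowledge. Over the 730 genes 66.6% were higher at an unadjusted p under 0.05, 6.58% were below the shared shift and 7.12% above it, and the counts of each list stand beside these shares with no test of the lists. All 11 genes of the mitochondrial ribosome were higher in Tdg+/- at an unadjusted p under 0.05, from Mrps23 at a log2 fold change of 0.34 to Mrpl55 at 0.69, and 0 departed from the chromosome. Of 12 other mitochondrial proteins 9 were higher, from Taco1 (0.19, not past the threshold) to Timm22 (0.62). All 9 genes of the list of chaperones and folding in the endoplasmic reticulum, which also holds cytosolic proteins, were higher, from the chaperonin subunit Cct4 (0.32) to the tubulin cofactor Tbcd (0.75), and 0 departed. The median was 0.44 for the mitochondrial ribosome and 0.50 for chaperones, beside 0.43 over the 730.

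Nuclear transport stood lowest, with a median of 0.16 over 5 genes. The exportin Xpo1 was at 0.09 and nucleoporin Nup88 at 0.12, both below the shared shift at an unadjusted p under 0.05, while the importin Kpnb1 was at 0.63. With the GC correction Xpo1, with a transcript GC content of 38.6%, was at -0.08 relative to the shared shift (edgeR, unadjusted p = 0.419) and Nup88 at -0.26 (edgeR, unadjusted p = 0.0266). Xpo1 levels were 692.6, 840.6 and 978.7 CPM in wt and 838.5, 1016 and 853.7 CPM in Tdg+/- lines, which overlapped, whereas Kpnb1 was at 630.2, 701.1 and 714.0 CPM in wt and 780.1, 1280 and 1138 CPM in Tdg+/- lines, which did not. Of 22 genes of LIF and kinase signaling 11 were higher and 4 were below the chromosome, among them the adaptor Crk (-0.08), and the highest was the mTORC1 subunit Rptor (0.70). Of 7 developmental transcription factors 3 were higher, from Ebf1 (-0.14) to Sp6 (0.79).

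In the proteasome and ubiquitin list 16 of 23 genes were higher, 5 were below the shared shift and 0 above it. The 5 were Skp1a, Ubb, Ube2g1, Trim25 and Spop, at 0.07 (Trim25, a ubiquitin ligase) to 0.20 against wt. With the GC correction Skp1a was at -0.12 and Ube2g1 at -0.06 relative to the shared shift (edgeR, unadjusted p = 0.281 and 0.536). Other ubiquitin genes reached 0.73 (Ube2o) and 0.64 (Ube2z), and proteasome subunits ran from 0.24 (Psmd11) to 0.73 (Psmd3). Splicing and RNA processing had 9 of 20 genes higher, with Srsf1 lowest and Slu7 (0.81), which acts at the second splicing step, highest. Among translation factors 10 of 12 were higher, from Eif1 (-0.07) to Gemin5 (0.77). In the list of ribosome biogenesis, which also holds genes of other functions (Nufip2, Rpain and Elac2), 6 of 10 were higher. It ran from Nufip2 (0.10) to the tRNA-processing enzyme Elac2 (0.83), so both ends were genes of other functions.

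Lipid, carbon and nucleotide metabolism had members at both ends, with 16 of 23 genes higher, 2 below the chromosome and 4 above. Fatty acid synthase (Fasn) was the highest of the list at a log2 fold change of 1.22 ± 0.25 (SE), with 230.9, 213.3 and 187.1 CPM in wt and 291.2, 597.4 and 594.2 CPM in Tdg+/- lines. The first Tdg+/- line was well below the other 2 but above all wt lines. Acly, which makes the acetyl-CoA that fatty acid synthase needs, was at 0.76 and also above the chromosome, and Pycr1 was lowest at -0.13. Cytoskeleton and adhesion genes had 12 of 16 higher, 1 below the chromosome and 4 above, from the integrin Itga3 (-0.02) to Llgl1 (0.97). The gene below was Pfn1 (0.091), and those above were Llgl1, Tns3 (0.956), Cdc42ep4 (0.916) and Sptbn1 (0.725). Membrane trafficking had 15 of 18 higher, from Sec24a (0.21) to the coatomer subunit Copz2 (1.01).

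The lists of mitosis, replication and repair, of chromatin regulators, and of Mediator and RNA polymerase II had medians of 0.48, 0.44 and 0.48. Of 24 genes of mitosis, replication and repair 15 were higher, from the kinetochore gene Ska2 (-0.05) to securin (Pttg1, 0.79), and 15 of 21 chromatin regulators were higher, from Kansl1 (0.12) to the deacylase Sirt7 (0.78). Of 13 Mediator and RNA polymerase II genes, a list without Med7, 9 were higher, from Med31 (0.17) to Supt6 (0.71). Pttg1 did not pass the unadjusted threshold and ranged from 13.0 to 37.5 CPM in wt lines and from 39.4 to 57.4 CPM in Tdg+/- lines.

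**Figure D5:**
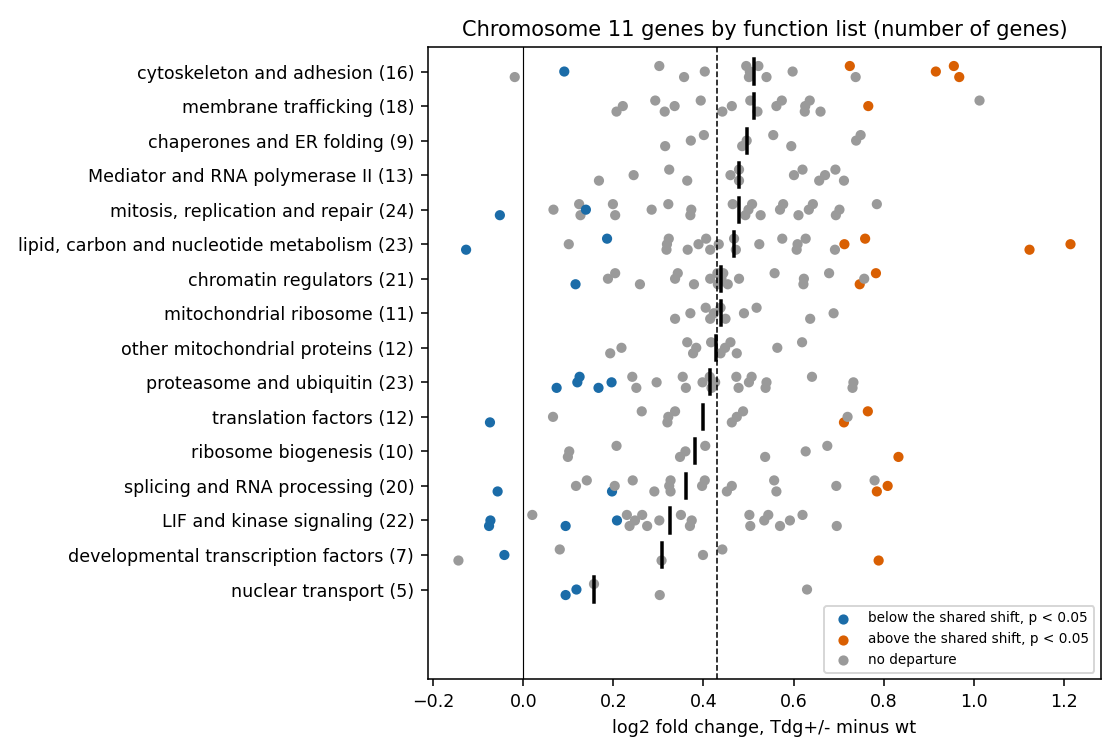
Log2 fold change of Tdg+/- against wt (x axis) of each gene in 16 function lists (y axis, number of genes in brackets); black bars are list medians, the dashed line the median of 0.43 over 730 genes, and colours mark genes below or above the shared shift at an unadjusted p under 0.05. Nuclear transport has the lowest median (0.16), and genes of the mitochondrial ribosome lie between 0.34 and 0.69.

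In the Tdg-/- lines the chromosome as a whole was not at the Tdg+/- level. Against wt, the median log2 fold change of the 730 genes was 0.05, with 311 genes at or below 0 (42.6%, background 51.3%), 121 higher (background 9.13%) and 20 lower (background 6.79%) at an unadjusted p under 0.05 in edgeR. The lines did not overlap for 63 that were higher (background 4.60%) and 17 that were lower (background 5.28%). After adjustment edgeR called 0 in either direction (background 0.0359% each), DESeq2 called 5, and without Tdg-/- line 1 edgeR called 191 and the unadjusted counts were 202 higher and 124 lower. Without any one of wt lines 2 and 3 and Tdg-/- lines 2 and 4, the unadjusted count of higher genes was 42 to 74, and without any one of wt line 2 and Tdg-/- lines 2, 3 and 4 that of lower genes was 7 to 12. The line medians differed by 0.04 from wt (two-sided exact permutation test, p = 0.514). Of the 16 lists, the mitochondrial ribosome had the highest median against wt in the Tdg-/- lines, 0.46, beside 0.44 in the Tdg+/- lines, and both comparisons share the wt lines. Mrps23, for example, was at 68.6, 62.7 and 64.1 CPM in wt, 84.1, 93.8 and 71.4 CPM in Tdg+/- and 63.5, 93.0, 88.1 and 111.0 CPM in Tdg-/- lines, and all but Tdg-/- line 1 were above wt.

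Against the Tdg+/- lines, the Tdg-/- lines had a median log2 fold change of -0.41 over the 730 genes, and 604 of them (82.7%) were at or below 0, beside 51.4% of all genes tested. The line medians differed by -0.37 (p = 0.0286 in a two-sided exact permutation test, with 3 against 4 lines unable to give less). In edgeR 247 genes were lower (background 5.51%) and 1, Crk, was higher (background 3.52%) after adjustment over 13962 genes. The count of lower genes depended on which line was left out, at 0 without Tdg+/- line 2, 1 without Tdg+/- line 3 or Tdg-/- line 2 or 3, 2 without Tdg-/- line 4 and 386 without Tdg-/- line 1. Fasn fell by 1.35 on the log2 scale (edgeR, adjusted p = 0.0256), with 250.3, 169.1, 166.9 and 191.0 CPM in the Tdg-/- lines. Adam19 fell by 1.28 (adjusted p = 0.0211) and Llgl1 by 1.22 (adjusted p = 0.0236).

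Departures from the shared shift were also tested between Tdg-/- and Tdg+/- lines, a comparison added after the data were seen. It uses the same Tdg+/- lines as the comparison with wt, so the values of each stand side by side. Relative to the chromosome 14 genes were higher in Tdg-/- (background 1.85%) and 20 lower (background 2.45%) in edgeR after adjustment. The shares, 1.92% and 2.74%, were close to the background. Crk was 0.90 above (adjusted p = 0.0325), Med7 0.85 (adjusted p = 0.0382), Zfp62 0.66 (adjusted p = 0.0353) and Xpo1 0.52 above (adjusted p = 0.0393), and against wt the Tdg+/- lines had these 4 at -0.08, -0.05, -0.16 and 0.09. Fasn was at -0.95 relative to the chromosome (adjusted p = 0.046) and Slc36a1 at -0.74 (adjusted p = 0.046). The 14 genes had a median GC content of 43.9% and the 20 of 54.4%, and with the GC correction 4 genes departed in place of 34. The count of 34 became 0 without any one of Tdg+/- lines 2 and 3 and Tdg-/- lines 2, 3 and 4, 68 without Tdg+/- line 1 and 388 without Tdg-/- line 1.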

How the data were processed

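Total RNA of the 10 lines was sequenced single-end by the authors and quantified with Salmon 0.8.1 on GRCm39, per the methods and the submitters' processing notes. For each of 116357 transcripts, the authors deposited an estimated count (an expected count, not normalized) and the TPM that the authors' quantification scaled by transcript length. Here the transcripts of a gene were summed and the sums rounded, and TPM served as an alternative scale for the line medians. Transcripts were paired with genes through a GRCm38 annotation (98.97% paired), so gene order and symbols follow that build. Transcripts without a gene, with 0.472% to 0.499% of a line's reads, were not used.

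Genes with at least 20 reads in 1 line of the fit were tested with edgeR 4.0.16 (quasi-likelihood, TMM, prior count 2, genotype as the only term) in R 4.3.3, with Benjamini-Hochberg adjustment over all genes tested and a threshold of 0.05. SE is the log2 fold change over the root of the F statistic. For the shared shift, each gene's log2 CPM was set against its mean over the lines of the fit. The median of these differences was taken per line and chromosome over protein-coding genes of at least 5 CPM (772 on chromosome 11). It was entered as an offset for all autosomes and X. Line medians were compared by exact permutation. Alternatives were RLE factors, TMM from genes outside chromosome 11, other filters, DESeq2 1.42.0, all 10 lines in the fit, 3 surrogate variables (sva 3.50.0, from variance-stabilized counts as in the study's methods, not centred by chromosome), the replicate number as a block, each line left out, other membership floors and centrings, and a GC offset (a lowess trend per line), which was added after the data were seen. The main edgeR fit, without and with the shared-shift offset, was tested on simulated data for each pair of genotypes, and the alternatives were not. Same-numbered lines did not deviate together (correlations of -0.21 to 0.19).

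Named genes were, by rule, the 10 with a full symbol and the smallest p below the shared shift whose fold change was also below 0, the 10 above, and the lowest and highest gene of each of 16 function lists. Mmd, Nup88, Acly, Skp1a, Ubb, Ube2g1, Spop, Ube2o, Ube2z, Psmd11, Pfn1, Tns3, Sptbn1 and Cdc42ep4 were chosen after their values were seen. The members, lists and rules were chosen with earlier results of these data known. Gm28048, Gm20390 and Gm27029 overlap other genes and share reads with them. Some results are not reported here.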

Additional observations from a re-analysis of the deposited data

Results flagged for a closer look

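Among the 4 Tdg-/- lines, 1 line lay far from the other 3 in 4 of 48 named genes, by Dixon's test, which chance passes in about 1 of 20 groups. Med7 was at 59.8 CPM in line 1, where the others were at 88.8 to 92.4 CPM. Crk was at 198 CPM in line 1, where the others were at 259.6 to 263.1 CPM. Itga3 was at 9.27 CPM in line 1, above the 3.60 to 4.39 CPM of the others. Cnp was at 14.9 CPM in line 4, above the 11.2 to 11.6 CPM of the others. Line 1 is also the Tdg-/- line whose counts differ most from the rest of its genotype. The cause was not tested.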

How the results depend on the processing

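The median log2 fold change of the 730 genes for Tdg+/- against wt kept its direction in each alternative and ran from 0.37 to 0.48 with lines left out. After adjustment, the count called was 110 with no filter, 273 in DESeq2, 7 with all 10 lines, 1 with the replicate block and 567 with 3 surrogate variables, which leave 1 residual degree of freedom, and 0 to 106 with lines left out. Unadjusted, 318 to 480 were higher and 1 to 6 lower with lines left out, and 5 or 1 lower with a floor of 1 or 20 CPM. With wt line 1 out, 6 genes were lower. Genes at or below 0 numbered 24 to 43 with lines left out, 59 at 1 CPM and 11 at 20 CPM. Departures after adjustment numbered 2 with no filter, 18 in DESeq2, 1 with the replicate block, 171 with surrogate variables (estimated on uncentred values) and 0 with lines left out. Unadjusted, 157 were below and 156 above with surrogate variables, and 20 to 80 below and 21 to 89 above with lines left out.

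For Tdg-/- against wt, DESeq2 called 5, lower genes numbered 35 with all 10 lines, and the replicate block gave 49 higher and 32 lower. With lines left out, 42 to 202 were higher, 7 to 124 lower, 0 to 191 called, and the median was 0.00 to 0.09. On TPM the line medians differed by -0.12, reversed from 0.04, where TPM medians of other chromosomes moved from -0.24 to 0.10 between lines. Against Tdg+/- the TPM difference was -0.53, and the median was -0.43 to -0.32 with lines left out. Lower genes after adjustment numbered 0 with the replicate block, 132 with the GC offset and 0 to 386 with lines left out; higher genes 3 in DESeq2, 0 with the block and with GC, and 0 to 19; departures 67 with no filter, 218 in DESeq2, 99 with all 10 lines, 0 with the block, 4 with GC and 0 to 388. The replicate numbers do not pair the lines, so the block is given as a check only. The causes were not tested. For the 48 named genes, 30 of 720 alternative values against wt changed sign, in 14 genes, and 2 of 864 relative to the shared shift. In addition, 157 values newly passed the threshold. The genes were chosen by their departures or as list extremes in the same lines, so the few sign changes are no independent check.

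The limits are 3 or 4 lines a genotype, 1 library a line, and no measure of DNA copy number. The 244 genes lowest in level had a median SE of 0.18 and the 243 highest 0.14, so a fold change near 0 is less certain for them.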
